A study of Mus musculus with 52 samples.

Results

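The genes described here are 9 macrophage and leukocyte genes: Il1b, S100a8, S100a9, Ptprc, Lyz2, Cd74, H2-Aa, Mrc1 and Cd163, of 49585 genes measured. They were listed by name, with their levels in these libraries already known, and their levels were followed through sorted endothelial cells (ECs), the cells around them and RiboTag fractions, in order to ask which leukocytes accompany the GFP-positive cells. Because values of these same libraries chose the 9 genes, their values are given as a description without a test, and p-values are given only for other genes, among them 95 leukocyte markers in 9 lists that were also drawn up with earlier results known.

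Interleukin-1 beta, the product of Il1b, is a cytokine that monocytes, macrophages and neutrophils make as an inactive precursor, and it acts on the IL-1 receptor of ECs and many other cells. Ptprc encodes CD45, a phosphatase on the surface of nucleated blood cells, and Lyz2 encodes the lysozyme of macrophages, monocytes and neutrophils. H2-Aa encodes the alpha chain of an MHC class II molecule, which presents peptides to helper T cells, and Cd74 encodes the invariant chain that escorts class II molecules, so that the pair marks dendritic cells, B cells and activated macrophages. Mrc1 (the mannose receptor) and Cd163 (the hemoglobin-haptoglobin scavenger receptor) are found on resident macrophages of vessels and meninges, and S100a8 and S100a9 encode a calcium-binding pair that fills the cytoplasm of neutrophils.

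The 52 samples fall into 26 groups of 2 replicates, and all mice were adult males. RNA-seq was performed on 24 libraries of viable cells sorted by GFP from cerebellum, anterior pituitary (AP) and posterior pituitary (PP). WT mice carried Tie2-GFP alone, and beta-catenin stabilized mice carried Tie2-GFP, Pdgfb-CreER and BcatEx3fl, an allele that yields a non-degradable beta-catenin after Cre recombination, and had been treated on postnatal day 10 with 100 µg of 4-hydroxytamoxifen (4HT). Effects of Cre, 4HT and beta-catenin therefore cannot be told apart between these genotypes. Tie2 regulatory sequences, which drive the GFP, are active in ECs and also in some cells of the blood lineage, which limits GFP as a marker of ECs alone. Each pituitary replicate is a pool of lobes from 20 to 30 animals aged 30 to 90 days, and since both lobes, and both cell fractions of a lobe, were taken from the same animals, AP and PP values are not independent of each other. A further 16 libraries hold RNA bound to tagged ribosomes, or the input RNA, of cortex and choroid plexus from RiboTag mice with Pdgfb-CreER of 6 to 8 weeks with or without BcatEx3fl, the choroid plexi of 3 or 4 animals being pooled. All of these RiboTag mice, WT included, carry Cre and had been given 4HT some weeks earlier. ATAC-seq was performed on 12 libraries of GFP-positive cells. The labels call 1 library of stabilized AP GFP-positive cells (replicate 2) anterior in its title and posterior in its tissue field; it was used as AP.

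Libraries of sorted cells held 12157485 to 37529274 estimated reads, and RiboTag libraries 6409013 to 21399125. The 10 endothelial markers summed to 1932 to 6186 TPM in GFP-positive and 1.86 to 35.0 TPM in GFP-negative libraries, without overlap. TPM (a level per transcript length that sums to the same total in each library) is taken up to a large part by a few short RNAs, so that nuclear protein-coding genes hold 28.1% to 56.1% of TPM in GFP-positive libraries but 34.3% to 43.8% in WT and 14.1% to 24.9% in stabilized cortex. Between genotypes the median log2 TPM difference of all genes was 0.03 in AP and -0.93 in PP GFP-positive cells, and -0.44 and -0.91 in GFP-negative cells, and on TPM rescaled to protein-coding genes 0.08, -0.19, -0.18 and -0.12. TPM therefore shows levels within a library here, whereas fold changes come from read counts normalized between libraries (edgeR, on the log2 scale with standard errors, SE). In bulk RNA, fewer cells of a type and less RNA per cell cannot be told apart.

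On GRCm38 the genes lie at chr2:129364570-129371139 (Il1b, minus strand), chr3:90668978-90670035 (S100a8, plus), chr3:90692632-90695721 (S100a9, minus), chr1:138062861-138175708 (Ptprc, minus), chr10:117277331-117282321 (Lyz2, minus), chr17:34282744-34287823 (H2-Aa, minus), chr2:14229392-14332057 (Mrc1, plus) and chr6:124304656-124330527 (Cd163, plus), and the position of Cd74 is not given here. S100a8 and S100a9 are neighbors. An antisense gene, Il1bos, overlaps Il1b and was given 1.06% of the reads of both, and since the protocol is not stated to keep the strand, reads of the pair cannot be fully told apart.

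A pair of sequences frames the chromatin results at the end. The first is the 250 bases before the start of H2-Aa on the minus strand (RefSeq, GRCm38.p6, chr17:34287824-34288073), shown because an ATAC-seq peak covered its boxes in all AP and all stabilized PP libraries. Capitals mark letters of the class II promoter boxes on either strand: the X box core (GCAAC, 81 to 77 bases before the start), the X2 box (TGACGTCA, 74 to 67) and the Y box (CCAAT, here as ATTGG, 48 to 44). The second is 300 bases upstream of Il1b on the minus strand (GRCm38, chr2:129373196-129373495), centered on a peak summit found in stabilized AP cells, in which capitals mark a PU.1-type AGGAAG, 2274 to 2269 bases before the start of Il1b.
H2-Aa promoter: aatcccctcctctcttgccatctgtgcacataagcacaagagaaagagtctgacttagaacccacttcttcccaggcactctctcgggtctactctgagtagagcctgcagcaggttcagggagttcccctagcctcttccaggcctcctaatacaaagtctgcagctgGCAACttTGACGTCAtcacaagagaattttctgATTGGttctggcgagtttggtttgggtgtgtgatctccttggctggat
Il1b upstream peak: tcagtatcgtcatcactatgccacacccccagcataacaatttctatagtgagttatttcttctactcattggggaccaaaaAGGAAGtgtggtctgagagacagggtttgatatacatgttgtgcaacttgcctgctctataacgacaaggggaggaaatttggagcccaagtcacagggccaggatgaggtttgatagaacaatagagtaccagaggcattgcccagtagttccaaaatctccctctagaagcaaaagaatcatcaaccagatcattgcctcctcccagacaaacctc

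All X, X2 and Y letters occur together in 0.18% of 32851 RefSeq promoter windows of this length (GCAAC in 29.9%, TGACGTCA in 1.55% and CCAAT in 33.8%, both strands), and among the 8 members with an entry only H2-Aa holds all 3. AGGAAG occurs in 29.5% of promoter windows, in those of 4 of the 8 members (S100a8, Ptprc, Lyz2 and Mrc1), and in 48.6% of 52393 summit windows of the library that gave the Il1b window. The Il1b window holds no AP-1-type TGANTCA (in 14.3% of those windows).

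In GFP-positive cells Il1b was near 0 in all libraries except those of the stabilized pituitary. In WT cells Il1b had 0 and 0.0239 TPM in cerebellum, 0 and 0.0239 TPM in AP (0 and 1 read), and 0 and 0 TPM in PP. In stabilized cells it had 0 and 0.0225 TPM in cerebellum, 104 and 155 TPM in AP (3445 and 5526 reads), and 65.5 and 53.4 TPM in PP (2558 and 2412 reads). The 4 stabilized pituitary libraries thus lie far above all 8 others, with no overlap. The ratio of stabilized to WT reads, scaled by library, was 11300 in AP (95% counting interval 2030 to 447000, resting on 1 WT read), and in PP the level was at least 1960-fold higher than the limit of 3 reads that a count of 0 allows.

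Lyz2 followed the same order in the pituitary. In AP, Lyz2 had 0.393 and 0.0797 TPM in WT GFP-positive cells (16 and 3 reads) and 42.9 and 53.9 TPM in stabilized ones (1232 and 1759 reads), and in PP it had 0.631 and 0.0804 TPM in WT and 85.3 and 66.4 TPM in stabilized cells. The fitted differences were 7.66 ± 0.89 (SE) in AP and 8.55 ± 0.923 in PP, 202-fold and 375-fold, and the groups did not overlap. In cerebellum, Lyz2 had 4.09 and 1.79 TPM in WT and 0.968 and 1.99 TPM in stabilized cells, so that the genotypes overlapped and the difference of -0.82 ± 0.675 was about the size of its error. The close paralog Lyz1 took 0.459% of the reads of both genes over all libraries.

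The class II pair was the most abundant of the 9 genes in stabilized pituitary GFP-positive cells and, unlike Il1b and Lyz2, was already present in WT. Cd74 had 27.4 and 8.34 TPM in WT AP, 935 and 718 TPM in stabilized AP, 121 and 54.0 TPM in WT PP, and 523 and 429 TPM in stabilized PP. H2-Aa had 18.8 and 12.2 TPM in WT AP, 398 and 354.5 TPM in stabilized AP, 35.4 and 26.3 TPM in WT PP, and 455 and 332 TPM in stabilized PP. For both genes each stabilized library was above each WT library of its lobe. The differences were 5.62 ± 0.69 (Cd74, 49.2-fold) and 4.62 ± 0.507 (H2-Aa, 24.6-fold) in AP, and 3.83 ± 0.633 (14.3-fold) and 4.46 ± 0.504 (22-fold) in PP. In cerebellum Cd74 had 3.55 and 0.941 TPM in WT and 11.2 and 4.21 TPM in stabilized cells, a difference of 2.0 ± 0.604, whereas H2-Aa stayed at or under 0.129 TPM in all 4 libraries.

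Ptprc, the marker shared by leukocytes, was higher by reads in each stabilized pituitary library of GFP-positive cells than in the WT libraries of its lobe. It had 0.772 and 0.205 TPM in WT AP (157 and 22 reads), 8.45 and 9.70 TPM in stabilized AP (1197 and 1315 reads), 6.49 and 0 TPM in WT PP (54 and 0 reads), and 8.64 and 3.65 TPM in stabilized PP (1289 and 631 reads). In AP the genotypes did not overlap (4.18 ± 1.35, 18.2-fold), and in PP neither the reads nor the TPM rescaled to protein-coding genes did (11.6 and 0 in WT, 29.1 and 12.98 in stabilized PP; 5.75 ± 1.46, 53.6-fold), whereas TPM as deposited overlapped because of WT replicate 1. Ptprc has 13 annotated transcripts and the transcript with most reads holds 46% of them, so that its TPM also depends on which transcripts the reads were assigned to. In cerebellum the order was the other way: 4.73 and 0.369 TPM in WT (139 and 61 reads) and 0 and 0 TPM in stabilized cells, at least 55.4-fold lower.

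Mrc1 was about level between the genotypes in AP and low in WT PP. In AP it had 17.5 and 17.6 TPM in WT and 21.8 and 16 TPM in stabilized GFP-positive cells, with a difference of 0.26 ± 0.905, so that the genotypes overlapped. In PP it had 0.0449 and 0.581 TPM in WT (9 and 88 reads) and 4.44 and 2.91 TPM in stabilized cells (993 and 763 reads), without overlap (3.98 ± 1.04, 15.7-fold). Cd163, which marks perivascular and meningeal macrophages more narrowly, was absent or nearly so throughout, at 0 to 0.0205 TPM (0 to 4 reads) in all 12 GFP-positive libraries.

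In GFP-positive cells the neutrophil pair was higher in stabilized than in WT AP, at low levels, but did not follow Il1b in PP. S100a8 had 0 and 0 TPM in WT AP, 0.332 and 0.153 TPM in stabilized AP (4 and 2 reads), and 0 TPM in all 4 PP libraries. S100a9 had 0 and 0 TPM in WT AP, 1.73 and 2.46 TPM in stabilized AP (22 and 34 reads), 3.43 and 0 TPM in WT PP, and 0 and 0 TPM in stabilized PP. The S100a9 level was thus at least 23.5-fold higher in stabilized AP, against the limit of 3 reads. In PP the 43 reads of WT replicate 1 are the only ones, so that the genotypes overlap. In cerebellum, S100a9 had 11.6 and 2.31 TPM in WT (201 and 36 reads) and 0.262 and 0 TPM in stabilized cells, and S100a8 had 0.920 and 0 TPM in WT and 1.11 and 0 TPM in stabilized cells. In GFP-positive cells of the stabilized pituitary, where Il1b had 53.4 TPM or more, S100a8 and S100a9 were thus at most 2.46 TPM.

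**Figure D1:**
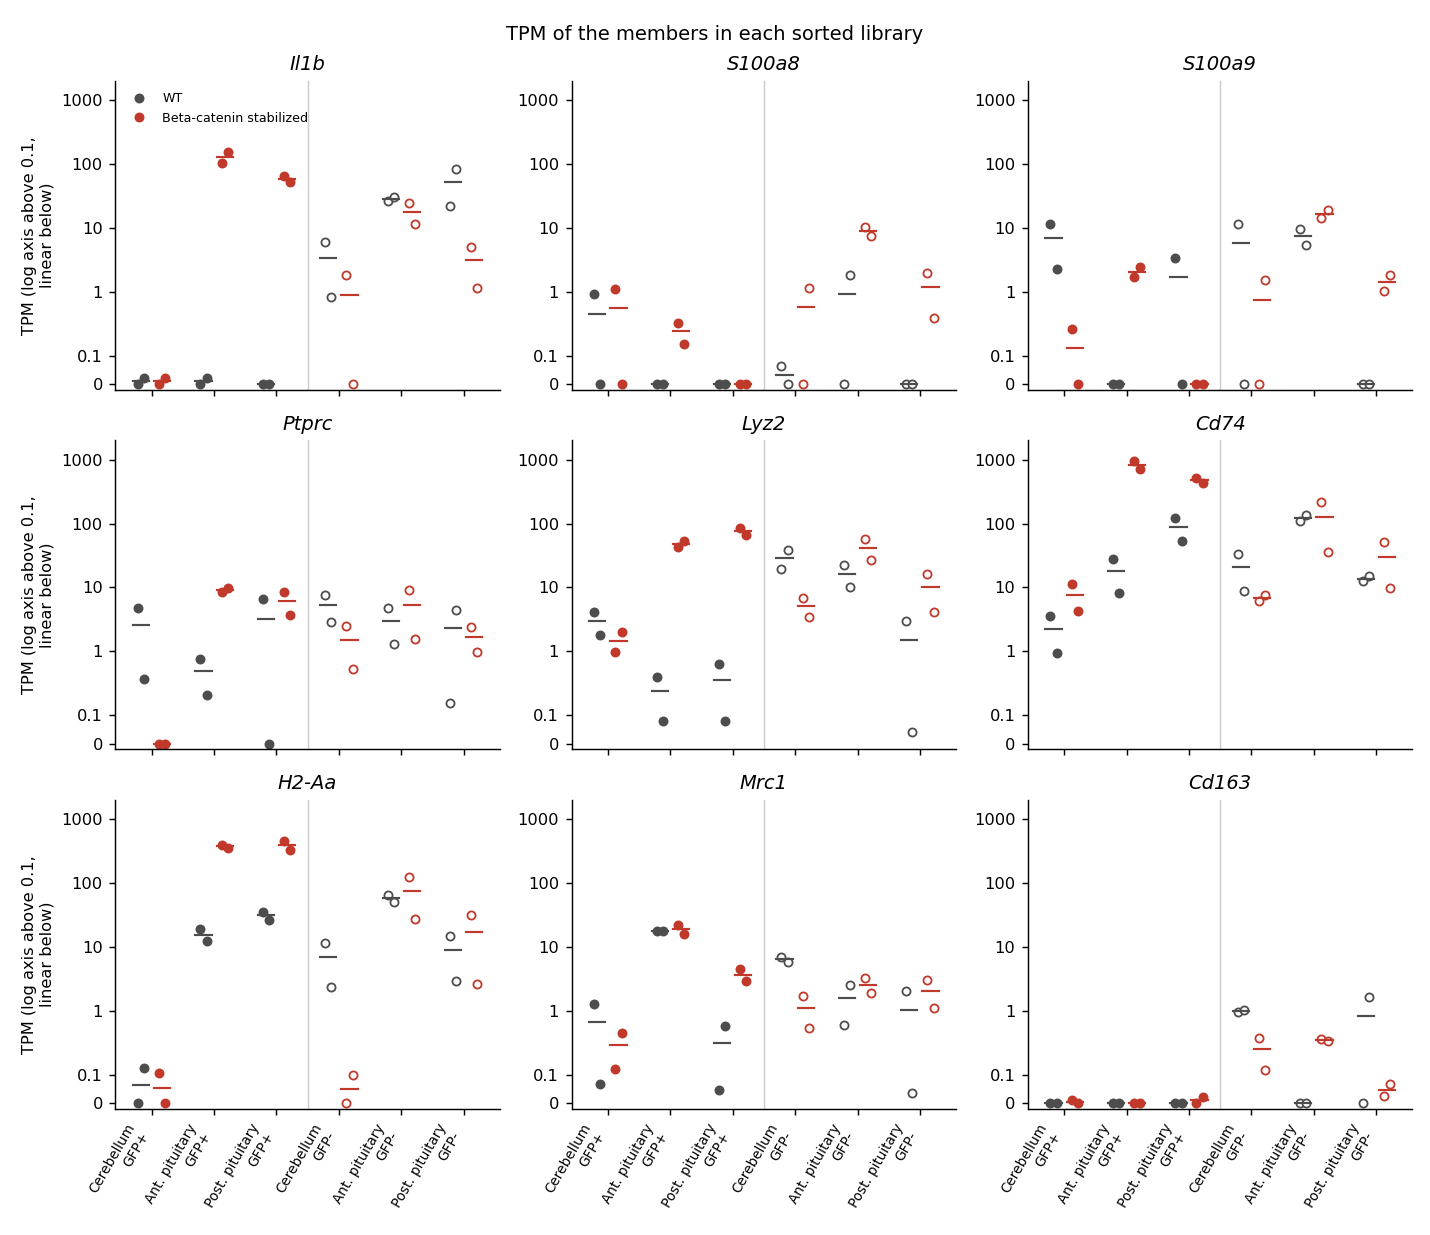
Levels of the 9 genes in the 24 sorted libraries in TPM (log axis that is linear near 0), with filled points for GFP-positive and open points for GFP-negative libraries, columns by tissue and genotype, and a horizontal line at the mean of the 2 replicates. The filled points of Il1b sit at or near 0 except in stabilized AP (104 and 155 TPM) and PP (65.5 and 53.4 TPM), and Cd163 is near 0 in every GFP-positive library.

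Across the 17915 genes of the GFP-positive fit, 0.441% were called higher and 0.0167% lower in stabilized AP (adjusted p under 0.05 and at least 2-fold), 1.25% and 0.541% in PP, and 0.067% and 0.581% in cerebellum. Of the 8 members that passed the filter on low counts, the same 4 (Il1b, Lyz2, Cd74 and H2-Aa) were among the higher genes in AP and in PP, and 0 in either direction in cerebellum. Cd163 did not pass the filter, and since the 9 genes were chosen from these values, the counts describe the choice and are not evidence of their own. Over the members with a value (those at 0 in a group taken at their bound), the median difference was 4.59 in AP (8 with a value), 4.22 in PP (8) and -0.22 in cerebellum (6), whereas over all genes tested the medians were 0.064, 0.010 and -0.076. Set against cerebellum, the genotype difference of Lyz2 was larger by 8.48 ± 1.08 in AP and by 9.37 ± 1.11 in PP; Lyz2 and Ptprc were the 2 members called for this difference in AP (beside 0.508% of all genes) and in PP (0.86%), and 0 were called between the lobes (0.128% in either direction).

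**Figure D2:**
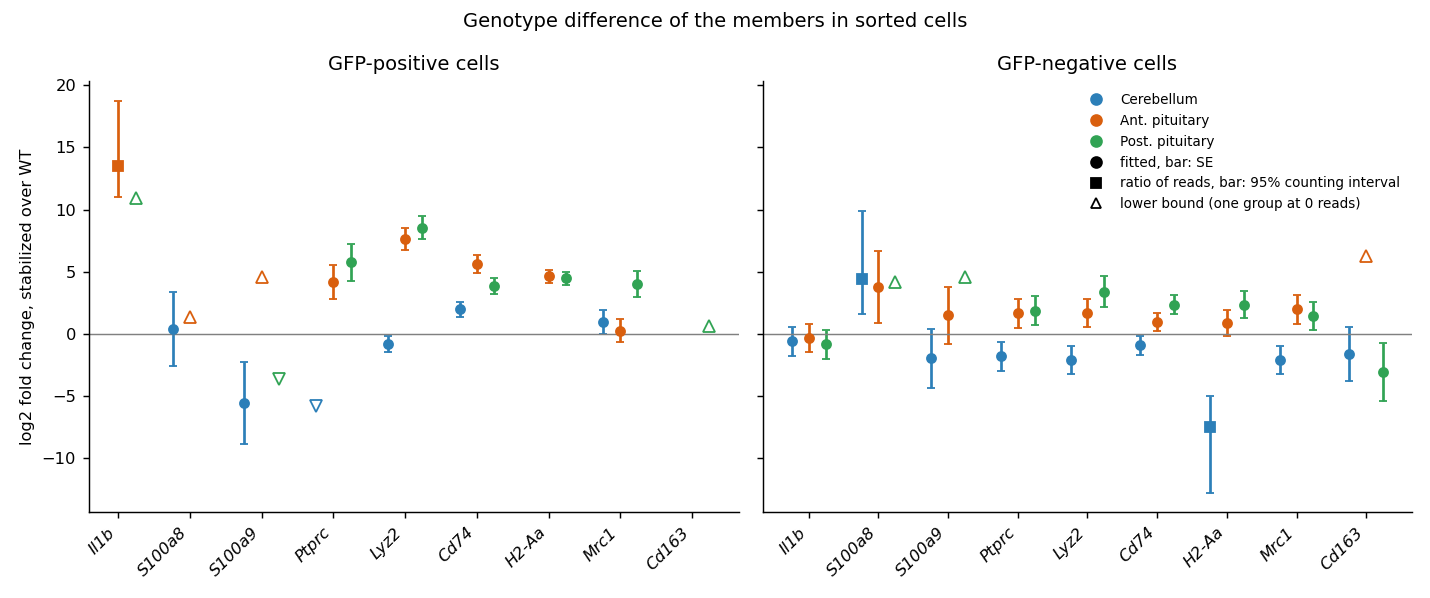
Log2 difference, stabilized over WT, of each of the 9 genes in GFP-positive and GFP-negative cells of the 3 tissues, with circles for fitted values and their SE, squares for ratios that rest on 1 to 3 reads with 95% counting intervals, and triangles for bounds where a group is at 0. The GFP-positive pituitary values of Lyz2 (7.66 and 8.55) and Cd74 (5.62 and 3.83) lie far above 0. Their GFP-positive cerebellar values are -0.82 (Lyz2) and 2.0 (Cd74).

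The other leukocyte markers were tested in the same fit, and since their lists too were drawn up with earlier results of these libraries known, their calls are not independent evidence. Of the 67 that passed the filter, 3 rose in stabilized AP GFP-positive cells and 5 in PP, and none fell. In cerebellum edgeR called 0 of 67, with 4 higher and 4 lower at an unadjusted p under 0.05 and 1 higher and 2 lower by DESeq2. DESeq2, which tested 86 markers, called 20 higher in AP and 27 in PP and none lower in either. The number of calls thus changed with the tool and the markers tested together, while the direction in these lobes did not. At an unadjusted p under 0.05, edgeR had 30 higher in AP and 34 in PP and 0 lower in both. Markers of other cell types moved as well. In AP Rgs5, a pericyte marker, was 2.66-fold higher in stabilized GFP-positive cells (147 and 104 against 41.2 and 45.3 TPM; edgeR adjusted p = 0.0257). In PP GFP-positive cells the EC marker Pecam1 was 2.09-fold lower by normalized reads in stabilized (232 and 202 TPM) than in WT libraries (1031 and 748 TPM; edgeR adjusted p = 0.0476), Kdr 3.72-fold lower (76.1 and 88.8 against 555 and 536 TPM; edgeR adjusted p = 0.0118), and Cldn5 8.57-fold higher (111 and 135 against 37.2 and 13.2 TPM; edgeR adjusted p = 0.00595). Their part in the leukocyte values was not tested. WT libraries listed at 0 make up much of the marker calls: 56 of the 95 genes had no read in either WT AP GFP-positive library.

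H2-Eb1, the beta chain of a second class II molecule, had 281 and 237 TPM in stabilized AP GFP-positive cells and 0 and 0 TPM in WT, at least 7220-fold higher (adjusted p = 0.00235, edgeR quasi-likelihood test with Benjamini-Hochberg adjustment). In PP, H2-Eb1 had 225 and 189 TPM against 0.291 and 0.146 TPM, 1880-fold (edgeR adjusted p = 0.00227). Ms4a7, a membrane protein of macrophages, had 24.1 and 57.0 TPM against 0.00625 and 0 TPM in AP (edgeR adjusted p = 0.00996) and 85.0 and 23.4 TPM against 0 and 0 TPM in PP, at least 872-fold higher (edgeR adjusted p = 0.00382). Laptm5, a lysosomal protein of hematopoietic cells, had 13.4 and 53.2 TPM against 0 and 0 TPM in AP (edgeR adjusted p = 0.00788) and 42.9 and 34.7 TPM against 0.878 and 0.508 TPM in PP (edgeR adjusted p = 0.0339). These rises thus cover class II, macrophage and shared leukocyte markers, and H2-Eb1 and Ms4a7 passed in both lobes under all 9 other settings.

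The remaining calls in PP were Csf1r, the receptor that macrophages and microglia need for survival, at 11.1 and 10.6 TPM against 0.449 and 0.0312 TPM (104-fold, edgeR adjusted p = 0.0371), and Tyrobp, an adaptor of myeloid receptors, at 43.5 and 37.8 TPM against 0 and 0 TPM (at least 527-fold higher, edgeR adjusted p = 0.0386). These calls are less firm. That of Csf1r was lost without WT PP replicate 2, that of Tyrobp without WT PP replicate 2 and without stabilized PP replicate 1, and those of Csf1r and Laptm5 in PP when only the groups compared were fitted, with edgeR adjusted p up to 0.085 for Csf1r, 0.0795 for Tyrobp and 0.0579 for Laptm5.

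By cell type, the lists differ in how far they follow Il1b. The 11 other class II and dendritic markers summed to 18.5 to 30.9 TPM in WT and 455 to 609 TPM in stabilized AP GFP-positive cells, and to 22.2 to 54.6 and 359 to 431 TPM in PP. The 10 microglial markers summed to 17.8 to 26.1 TPM in WT and 65.9 to 138 TPM in stabilized AP, and to 36.6 to 52.1 and 90.2 to 145 TPM in PP. The 10 border macrophage markers summed to 9.87 to 36.4 and 42.5 to 82.9 TPM in AP, and to 3.93 to 13.7 and 31.2 to 107 TPM in PP. The 10 B cell markers summed to 0 to 4.20 TPM in WT and 8.68 to 26.9 TPM in stabilized AP, and to 0.0440 to 0.330 and 2.44 to 15.5 TPM in PP, and the 10 monocyte markers to 3.06 to 7.35 and 10.2 to 26.2 TPM in AP and 4.77 to 13.1 and 14.4 to 25.6 TPM in PP. These 5 sums were thus higher in every stabilized pituitary library than in every WT library of its lobe, without a test of the sums. The 14 other neutrophil markers summed to 1.96 to 2.57 TPM in WT and 4.27 to 5.70 TPM in stabilized AP, and to 19.3 to 198 and 19.4 to 51.0 TPM in PP, where Ltf (lactoferrin, which glandular epithelium also makes) gives 191 of the WT and 46.7 of the stabilized TPM in replicate 1. The 14 T and NK cell markers summed to 10.7 to 14.7 and 11.4 to 16.5 TPM in AP, so that the genotypes overlap, and to 9.34 to 11.5 and 15.9 to 24.1 TPM in PP. The neutrophil sums did not overlap between the genotypes in AP but did in PP, and the T and NK cell sums the reverse. By the median log2 difference of their measured genes, with genes at 0 at their bound, the microglial list stood at 5.77 in AP and 7.12 in PP and the border macrophage list at 5.0 and 5.8, against 2.84 and 3.25 for class II, 2.84 and 3.3 for B cells, 2.34 and 2.34 for monocytes, 2.25 and 2.88 for neutrophils and 0.845 and 4.33 for T and NK cells. The medians were thus positive for all 7 of these lists in both lobes. What part each of these cell types takes in the levels of the 9 genes was not tested.

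Single markers in GFP-positive cells, named here after their values were seen, do not follow their lists throughout. Of the granule and surface markers of neutrophils, Camp, Elane and Mpo were at 0 in all 4 stabilized pituitary GFP-positive libraries and Ly6g had 0 and 0.208 TPM in AP and 0 and 0 TPM in PP. Klrb1c (NK cells), Folr2 and Cd209f (border macrophages) and all of Cpa3, Tpsb2, Fcer1a and Ms4a2 (mast cells) were also at 0 in those 4 libraries. Tmem119, a microglial surface protein, had 2.70 and 4.62 TPM in stabilized AP and 2.96 and 2.97 TPM in stabilized PP, and at most 0.0299 TPM in the 4 WT libraries. Other genes of the same lists were present: Csf3r of the neutrophil list had 3.34 and 1.502 TPM in stabilized AP and 2.87 and 0.859 TPM in stabilized PP, and Ighm of the B cell list 2.36 and 5.66 TPM and 4.74 and 1.42 TPM. Itgax (CD11c of dendritic cells and activated macrophages) had 6.99 and 4.18 TPM in stabilized AP and 3.48 and 2.51 TPM in stabilized PP, and Ccr2 (the chemokine receptor of inflammatory monocytes) had 2.03 and 2.59 TPM and 3.32 and 2.44 TPM, both with 0 TPM in WT. Cd4 had 2.16 and 4.08 TPM in AP and 20.7 and 6.92 TPM in PP, again with 0 TPM in WT, whereas Cd3e, a subunit of the T cell receptor complex, was at most 0.702 TPM. None of Tmem119, Itgax, Ccr2 and Cd4 was called (edgeR adjusted p = 0.168, 0.108, 0.182 and 0.522 in AP and 0.122, 0.0536, 0.0749 and 0.23 in PP). The mast cell list summed to at most 0.0799 TPM in these libraries and no other list was near 0 as a whole, so that these markers do not set a single leukocyte type apart.

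**Figure D3:**
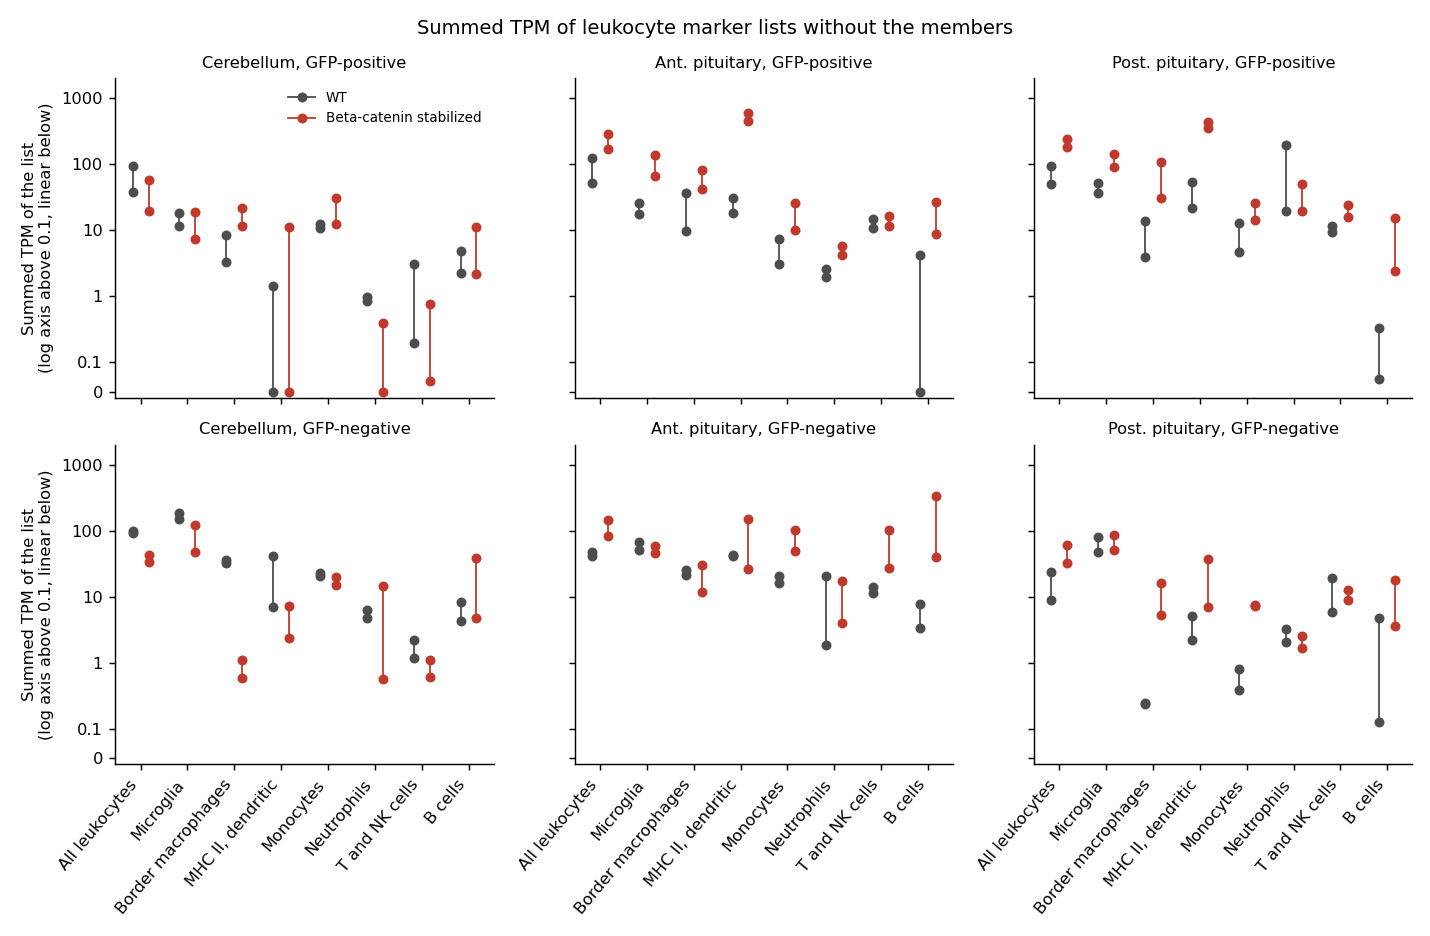
Summed TPM of 8 lists of leukocyte markers other than the 9 genes in the 24 sorted libraries, with the 2 replicates of each group joined by a line. In the GFP-positive pituitary the class II list goes from 18.5 to 54.6 TPM in WT to 359 to 609 TPM in stabilized libraries, and the neutrophil list overlaps between genotypes in PP.

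Genes of the IL-1 pathway and of inflammation were read beside Il1b in GFP-positive cells. Il1rn, the receptor antagonist that myeloid cells release, had 0.17 and 4.33 TPM in stabilized AP and 4.23 and 15 TPM in stabilized PP. Il1a (interleukin-1 alpha) had 0.51 and 1.86 TPM and 1.66 and 1.32 TPM. Nlrp3, a sensor of the inflammasome that leads to cleavage of the Il1b precursor, had 2.69 and 9.53 TPM and 0.61 and 0.98 TPM. All of these had 0 TPM in WT pituitary GFP-positive cells and none was called. The chemokines Ccl3 and Ccl4 rose in PP, from 0 and 0 TPM to 38.1 and 39.0 TPM (at least 502-fold, edgeR adjusted p = 0.0199) and from 0 and 0 TPM to 48.0 and 23.2 TPM (at least 455-fold, edgeR adjusted p = 0.0243, lost without stabilized PP replicate 1). Il1r1, the receptor, had 2.51 and 3.42 TPM in WT and 4.63 and 5.43 TPM in stabilized AP, and 21.3 and 6.70 TPM in WT and 8.46 and 4.82 TPM in stabilized PP, where the genotypes overlap, and it was not called in either lobe. The 8 immediate early genes, which cell dissociation can induce, summed to 2557 to 3573 TPM in WT and 594 to 821 TPM in stabilized AP GFP-positive cells, and to 718 to 2208 and 241 to 264 TPM in PP, without a call in either lobe (0 of 8). In cerebellum, where Il1b stayed near 0 in both genotypes, 2 of the 8 were called lower in stabilized GFP-positive cells, Egr1 (19.5-fold, edgeR adjusted p = 0.0272) and Dusp1 (8.28-fold, edgeR adjusted p = 0.0272). Their part in the levels of Il1b was not tested.

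In GFP-negative cells of the pituitary Il1b was present in both genotypes. In AP it had 27.0 and 30.6 TPM in WT (1331 and 1558 reads) and 24.5 and 11.5 TPM in stabilized cells (1076 and 820 reads), with a fitted difference of -0.31 ± 1.14. In PP it had 22.5 and 82.7 TPM in WT (417 and 362 reads) and 5.13 and 1.17 TPM in stabilized cells (291 and 72 reads). The fitted difference was -0.83 ± 1.15, smaller than the TPM give, as 362 reads stood for 82.7 TPM in a WT library and 291 reads for 5.13 TPM in a stabilized one, and the cause of that gap was not tested. In cerebellum it had 6.06 and 0.829 TPM in WT and 1.81 and 0 TPM in stabilized cells. In neither lobe were both stabilized GFP-negative libraries above the WT libraries, whereas in GFP-positive cells they were; on TPM rescaled to protein-coding genes stabilized AP replicate 1 (83.7) was above the WT libraries (75.7 and 73.2).

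The other myeloid genes in GFP-negative pituitary cells were higher in some stabilized libraries, without a call. Lyz2 had 22.6 and 10.1 TPM in WT and 56.5 and 26.8 TPM in stabilized AP (1.65 ± 1.12), and 2.93 and 0.0401 TPM in WT and 16.1 and 4.17 TPM in stabilized PP (3.41 ± 1.21), without overlap in either lobe. Cd74 had 110 and 137 TPM in WT and 220 and 36.4 TPM in stabilized AP, and 12.5 and 14.9 TPM in WT and 50.5 and 9.83 TPM in stabilized PP, so that in AP stabilized replicate 2 was the lowest of the 4 libraries (0.97 ± 0.742). In PP the reads of Cd74 did not overlap, at 592 and 399 in WT and 3447 and 647 in stabilized libraries (2.36 ± 0.776, 5.12-fold higher), nor did the rescaled TPM. S100a8, at 0 and 1.83 TPM in WT, had 10.3 and 7.66 TPM in stabilized AP (180 and 175 reads), the highest values of this gene among the sorted libraries. In cerebellum Mrc1 had 6.93 and 5.79 TPM in WT and 1.69 and 0.541 TPM in stabilized cells (-2.11 ± 1.15) and Lyz2 had 19.4 and 38.1 TPM and 6.90 and 3.42 TPM, both without overlap. Other genes moved with genotype in GFP-negative cells: in cerebellum the myelin gene Mbp was 6.69-fold higher (edgeR adjusted p = 0.0457), the neuronal Snap25 4.4-fold higher (edgeR adjusted p = 0.0205), and the immediate early genes Fosb 16.4-fold and Egr1 4.67-fold lower (edgeR adjusted p = 0.00136 and 0.044), and in PP Rgs5 was 9.24-fold higher (edgeR adjusted p = 0.036). Their part in the values of the 9 genes was not tested.

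No member was called between genotypes in GFP-negative cells (0 of 9 in each tissue, beside 0.76% of 19612 genes in cerebellum, 0.0408% in AP and 0.133% in PP). Among 78 other leukocyte markers edgeR also called 0 in each tissue, although 15 were higher and 0 lower in AP and 31 higher and 0 lower in PP at an unadjusted p under 0.05, and DESeq2 called 7 higher in AP, 18 higher in PP, and 1 higher and 7 lower in cerebellum. Over the 95 markers (those with a value, at their bound where a group is at 0) the median difference was 2.09 in AP and 3.70 in PP in GFP-negative cells, beside 3.01 and 4.36 in GFP-positive cells. Higher leukocyte markers in the stabilized pituitary are therefore seen in both fractions as a description, while the fitted differences of Il1b in GFP-negative cells (-0.31 ± 1.14 and -0.83 ± 1.15) were within their errors, and the difference between the fractions was not tested here.

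Set against the GFP-negative cells of the same tissue, WT GFP-positive cells had little Il1b. The Il1b level was 2650-fold lower in WT AP (95% counting interval 476 to 105000), at least 227-fold lower in WT PP, and 195-fold lower in WT cerebellum (34.7 to 7760). The difference of Lyz2, GFP-positive over GFP-negative, was -6.20 ± 1.34 in AP and -3.79 ± 1.17 in cerebellum. Mrc1 went the other way in WT AP, where GFP-positive cells (17.5 and 17.6 TPM) were above GFP-negative cells (0.608 and 2.54 TPM) by 4.02 ± 1.32, and in WT PP Cd74 and H2-Aa were above by 2.39 ± 0.798 and 2.13 ± 0.969. The erythrocyte gene Hba-a1 was at least 4650-fold higher in the same WT PP comparison (769.5 and 303.6 against 0 and 0 TPM, edgeR adjusted p = 0.000201). Fosb was 6.21-fold lower there (edgeR adjusted p = 0.0374), and the part of both was not tested.

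In stabilized pituitary the order of the fractions for Il1b was turned. Il1b was 2.48 ± 1.03 higher in GFP-positive than in GFP-negative cells of stabilized AP, and 3.94 ± 1.10 higher in PP (15.3-fold), with each GFP-positive library above each GFP-negative one in both lobes. H2-Aa was 1.79 ± 0.949 and 4.32 ± 1.06 higher and Cd74 2.01 ± 0.785 and 3.94 ± 0.852 higher, whereas Lyz2 was about level in AP (-0.16 ± 1.05) and higher in PP (2.67 ± 1.11). Of the 9 members tested among 21343 genes, those called lower in GFP-positive cells were 5 in WT cerebellum (beside 6.89% of all genes), 3 in WT AP (5.87%), 1 in WT PP (7.45%) and 2 in stabilized cerebellum (9.92%); 3 were called higher in stabilized PP (5.49%) and 0 in stabilized AP (8.29% in either direction). In the same stabilized PP comparison the platelet gene Ppbp was at least 268-fold higher in GFP-positive cells (18.4 and 9.3 against 0 and 0 TPM, edgeR adjusted p = 0.0168), and Fosb and Egr1 were 6.82-fold and 5.96-fold lower (edgeR adjusted p = 0.0369 and 0.0162), and their part was not tested. The genotype and fraction comparisons share libraries and are given side by side only.

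Of 83 other markers tested between the fractions, 9 were called lower and 1 higher in GFP-positive cells of WT AP (beside 5.87% of all genes lower), and 9 lower and 0 higher in those of WT cerebellum (6.89% lower). In WT PP 5 were called higher and 3 lower, beside 7.07% of all genes higher and 7.45% lower (8 and 8 by DESeq2, and 4 in all with libraries of the same number paired), and in stabilized PP 1 higher and 1 lower. The leukocyte marker Lcp1, which encodes an actin-bundling protein, was 24.9-fold higher in WT PP GFP-positive cells, at 43.3 and 95.1 against 0.514 and 3.35 TPM (edgeR adjusted p = 0.000224), and was also called higher in those of WT AP (9.34-fold, edgeR adjusted p = 0.00387) and stabilized PP (5.87-fold, edgeR adjusted p = 0.0165, lost without stabilized PP GFP-negative replicate 2). Among the genes called in WT AP and cerebellum, Ms4a7 (edgeR adjusted p = 0.00328) and Csf1r (edgeR adjusted p = 0.0244) were lower in GFP-positive cells of WT AP, the call of Csf1r being lost without WT AP GFP-positive replicate 2 and when only the groups compared were fitted (edgeR adjusted p up to 0.104), and the microglial Tmem119 was at least 426-fold lower in those of WT cerebellum (edgeR adjusted p = 0.00408). In stabilized AP edgeR called 0 of 83, with 1 higher and 1 lower at an unadjusted p under 0.05 and likewise by DESeq2. In stabilized cerebellum Siglech, a microglial lectin, remained at least 330-fold lower in GFP-positive cells (edgeR adjusted p = 0.0034), and 10 markers were called lower there, beside 9.92% of all genes, and 2 higher, Ly6c2 and Pf4, of which Pf4 kept its call in 5 of 10 other settings.

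RiboTag libraries of whole cortex and choroid plexus held almost no Il1b, at most 20 reads and 2.95 TPM as deposited in any library, but held the macrophage genes. The levels that follow are in TPM rescaled to nuclear protein-coding genes alone, a scale chosen after seeing the data because the short RNAs differ between genotypes. In cortex Ptprc had 1.61 and 1.33 TPM in WT input and 27.8 and 14.9 TPM in WT bound RNA, and Lyz2 had 6.42 and 8.90 TPM and 121 and 67.0 TPM. Bound RNA was thus above input without overlap, 13.1-fold for Ptprc (3.72 ± 0.39) and 10.7-fold for Lyz2 (3.43 ± 0.34), where Pdgfb-CreER is used to tag the ribosomes of ECs. In stabilized cortex the differences were 3.26 for Ptprc and 3.04 for Lyz2.

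In choroid plexus 6 members were above input in WT bound RNA: Ptprc (2.28 ± 0.399), Lyz2 (2.59 ± 0.32), Cd74 (2.19), H2-Aa (2.40), Mrc1 (2.87 ± 0.592) and Cd163 (2.75). Cd163 had 6 and 11.1 TPM in WT and 1.69 and 3.18 TPM in stabilized bound RNA of choroid plexus, levels that no GFP-positive sorted library reached. Among 18241 genes, members called higher in bound RNA were 2 of 6 tested in WT cortex (beside 7.46% of all genes), 4 in stabilized cortex (10.1%), 6 in WT choroid plexus (8.67%) and 5 in stabilized choroid plexus (9.35%). Of 52 other leukocyte markers tested, 24 were higher in bound RNA in WT cortex and 1 lower, and 25, 21 and 19 were higher and 0 lower in stabilized cortex, WT choroid plexus and stabilized choroid plexus. In WT cortex Tyrobp was 33.7-fold (edgeR adjusted p = 1.16e-06) and Laptm5 28.4-fold higher (edgeR adjusted p = 5.12e-07), beside 47.5-fold for the EC claudin Cldn5 (edgeR adjusted p = 4.42e-07). The erythrocyte gene Hba-a1 (9.8-fold, edgeR adjusted p = 0.00294) and the immediate early gene Dusp1 (5.13-fold, edgeR adjusted p = 0.0325) were higher there too. Hba-a1 was called lower in bound RNA of stabilized cortex (5.45-fold) and of WT and stabilized choroid plexus (3.69-fold and 13.7-fold). Their part was not tested. The 10 microglial markers summed to 101.1 to 112.9 TPM (as deposited) in WT cortex input and 2639 to 3526 TPM in bound RNA, with none at 0. Bound RNA of these Pdgfb-CreER mice thus carries transcripts of microglia, and in choroid plexus of macrophage genes, together with those of ECs. In cortex neither Mrc1 (0.598 ± 0.553 in WT and 1.46 ± 0.579 in stabilized) nor Cd163 (0.00276 ± 0.533 and 0.676 ± 0.537) was called. The median difference in WT cortex was 0.79 for the border macrophage list and 4.38 for the microglial list.

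Between genotypes, H2-Aa in bound cortex RNA had 0.329 and 1.57 TPM in WT (1 and 6 reads) and 53.6 and 7.89 TPM in stabilized libraries (80 and 26 reads), 5.05 ± 0.877 higher without overlap, with the replicates far apart. Lyz2 in choroid plexus input had 29.9 and 22.9 TPM in WT and 161 and 131 TPM in stabilized libraries (2.26 ± 0.208, 4.79-fold), and in bound RNA 217 and 323 TPM and 802 and 896 TPM (1.43 ± 0.351). Ptprc in choroid plexus input had 1.49 and 1.07 TPM in WT and 5.58 and 3.83 TPM in stabilized libraries (1.83 ± 0.378). S100a8 and S100a9 in stabilized choroid plexus input had 7 and 35 and 2 and 65 reads, high in replicate 2. Members called were 1 of 6 in bound cortex (higher, beside 3.65% of all genes), 0 in bound choroid plexus (0.852% in either direction), 2 higher in cortex input (8.44%) and 1 higher in choroid plexus input (0.0995%). Of the other leukocyte markers, edgeR called 0 of 47 higher and 1 lower in bound cortex, Cd53 (a leukocyte tetraspanin, 3.63-fold lower, edgeR adjusted p = 0.00983, lost without stabilized cortex bound replicate 1), and 5 of 43 higher and 2 lower in cortex input, the microglial Fcrls among the lower (2.93-fold, edgeR adjusted p = 0.0162, lost without replicate 1 of either genotype). In choroid plexus it called 0 of 47 in bound RNA and 0 of 43 in input, with 7 and 20 higher and 0 lower at an unadjusted p under 0.05 and 3 and 1 higher by DESeq2. Genes of other cell types and tissues and immediate early genes moved with genotype too. In bound cortex the erythrocyte gene Hbb-bs was 6.77-fold lower in stabilized libraries (edgeR adjusted p = 0.00392) and Egr1 11.3-fold lower (edgeR adjusted p = 0.0158). Egr1 and Fos were 4.47-fold and 3.93-fold lower in stabilized cortex input (edgeR adjusted p = 0.0344 and 0.0123). In cortex input Ttr, a choroid plexus gene, was 51.9-fold higher (edgeR adjusted p = 0.00837), the erythrocyte gene Hba-a1 29.3-fold (edgeR adjusted p = 0.000113) and the endothelial Pecam1 15.9-fold (edgeR adjusted p = 2.01e-05), whereas Hbb-bs and Kdr were not called there (edgeR adjusted p = 0.284 and 0.139). Their part in the values of the 9 genes was not tested.

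**Figure D4:**
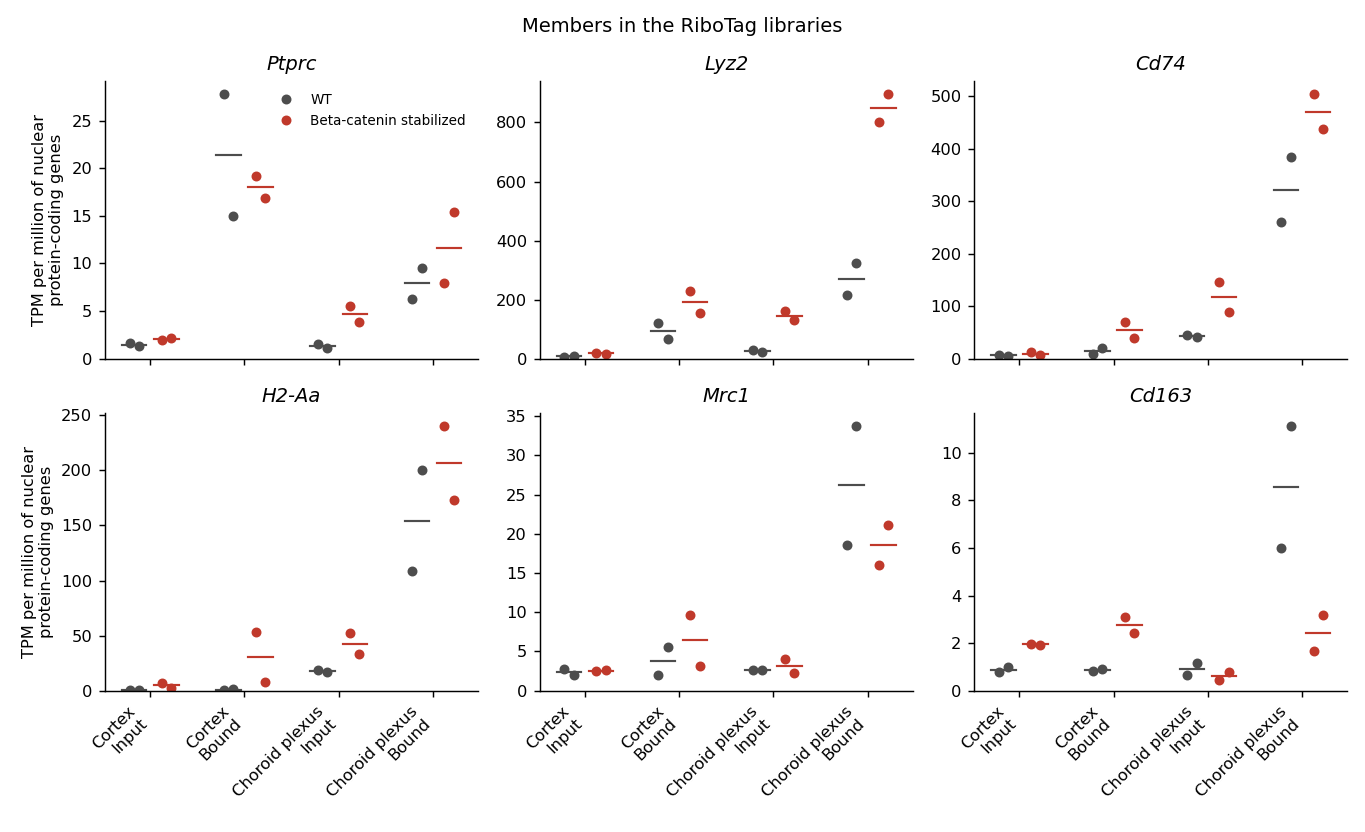
Levels of 6 of the 9 genes (TPM rescaled to nuclear protein-coding genes, linear axes) in the 16 RiboTag libraries, by tissue, genotype and fraction, each point 1 library. Lyz2 in choroid plexus goes from 29.9 and 22.9 in WT to 161 and 131 in stabilized input, and bound RNA is above input for Ptprc and Lyz2 in every group.

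ATAC-seq of the GFP-positive cells gave peaks at the starts of H2-Aa and Cd74, and in 1 library of Lyz2. A peak was counted when any part of it lay within 1000 bp of an annotated start of transcription. Its fold enrichment and its -log10 q both had to exceed 2. At H2-Aa, fold enrichment was 10.7 and 10.6 in WT AP, 11.7 and 13.8 in stabilized AP, 8.84 and 8.66 in stabilized PP, and 4.66 in stabilized cerebellum replicate 1, with no peak in the other 5 libraries. The summits lay 53 to 111 bases before the start, within the sequence printed above that holds the X, X2 and Y letters. At Cd74 it was 5.72 and 4.74 in WT AP, 9.57 and 9.94 in stabilized AP, and 8.64 and 7.76 in stabilized PP. In PP both starts had a peak in the 2 stabilized and in neither WT library, whereas AP had them in both genotypes, as it had Cd74 and H2-Aa transcripts in both. The lists held 26402 and 25684 peaks in WT PP and 36358 and 51666 in stabilized PP, and the part of list length in these absences was not tested. At Lyz2 a peak 225 bases after the start was called in stabilized PP replicate 2 alone (fold enrichment 2.835, -log10 q 3.41). WT PP cells had transcripts of both genes (26.3 TPM or more) without a peak called at either start. Both WT PP libraries had a peak further upstream of H2-Aa, 8369 and 8362 bases before its start (fold enrichment 3.92 and 4.76). A peak there was also called in all AP libraries (9.44 to 10.6), both stabilized PP libraries (6.75 and 7.57) and stabilized cerebellum replicate 1 (3.82). AP libraries alone had further peaks near Cd74, and all of them had a peak 2.01 to 2.06 kb after its start.

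No library had a peak within 1000 bp of the start of Il1b, but a peak 2197, 2207 and 2413 bases upstream of it was present in stabilized AP replicate 1 (fold enrichment 3.17, -log10 q 2.51, close to the limit), stabilized AP replicate 2 (6.76) and stabilized PP replicate 2 (5.23). It was called in none of the WT or cerebellar libraries and not in stabilized PP replicate 1. Stabilized PP replicate 2 alone had 4 further peaks near Il1b, 9236 and 9771 bases upstream (4.18 and 6.01, the latter with the highest enrichment near Il1b in that library) and 10 and 10.8 kb after the start (3.85 and 3.16). The window printed above is centered on the summit of stabilized AP replicate 2. Ptprc had intronic peaks 39.1 and 16.6 kb after its start in both stabilized AP libraries (4.15 and 3.66, and 3.9 and 4.16) and in stabilized PP replicate 2, and a peak 12.9 kb after the start in both stabilized PP libraries (4.56 and 3.135), and in WT AP its only peaks were 107 kb after the start. Mrc1 had a peak 66.2 kb after its start in 11 libraries and at 66.7 kb in WT PP replicate 2. It had one at 3.67 kb in all 4 AP libraries (6.04 to 7.11) and in no other, and its GFP-positive level was highest in AP in both genotypes. A peak 112 to 113 kb after the start had fold enrichment 4.15 and 3.66 in WT AP and 8.42 and 9.73 in stabilized AP. In PP that peak was called in both stabilized libraries (5.77 and 5.96) and in neither WT library, and no cerebellar library had it. WT AP alone had further peaks at 10 to 13.2 kb (2.78 to 3.39).

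Members with a peak at the start in both libraries of a group were 2 of 9 in WT AP, stabilized AP and stabilized PP and 0 of 9 in WT cerebellum, WT PP and stabilized cerebellum, beside 56.7%, 57.2%, 53.3%, 49.7%, 50.2% and 52.9% of 21938 protein-coding genes. Of 92 other leukocyte markers, 14, 18 and 12 had one in WT AP, stabilized AP and stabilized PP, and 4, 8 and 9 in the others. The share of members is thus below that of protein-coding genes in every group. No count of reads in peaks was used, so that a peak not called in a library is a call under the threshold and not a measured 0.

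**Figure D5:**
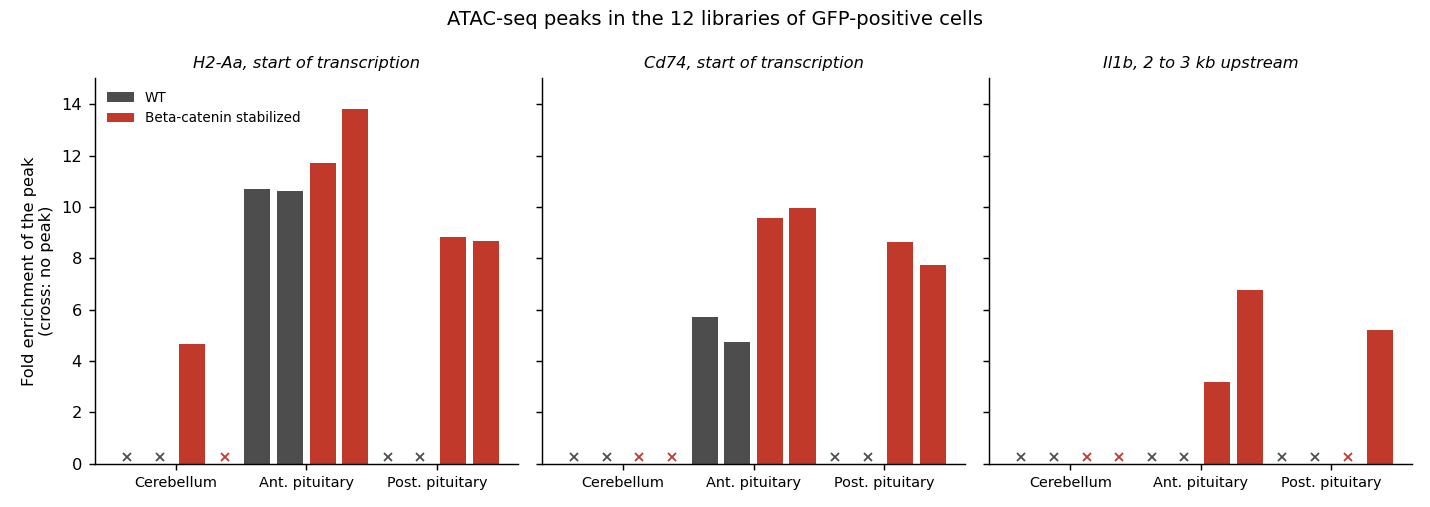
Fold enrichment of the ATAC-seq peak at the start of H2-Aa, at the start of Cd74 and 2 to 3 kb upstream of Il1b in each of the 12 GFP-positive libraries, with a cross where no peak was called. H2-Aa has bars of 8.66 to 13.8 in all WT AP and stabilized pituitary libraries, and the Il1b peak is seen in 3 stabilized pituitary libraries.

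Over the 24 sorted libraries, the genes whose log2(TPM + 1) followed Il1b most closely among 9663 protein-coding genes were Mpeg1 (Pearson r 0.878), Rgs1 (0.832), Adgre1 (0.818), C1qa (0.802) and Cybb (0.80). Those closest to Ptprc were Adgre1 (0.778), Ms4a6c (0.749), Mpeg1 (0.745), Tgfbr1 (0.738) and Cxcl16 (0.737). Mrc1 was followed most closely by Lipc (0.797), Gm525 (0.796), G0s2 (0.781), Sema3d (0.771) and Dpysl3 (0.764), and S100a8 by Apoc3 (0.88), Spink4 (0.844), E030030I06Rik (0.735), Inmt (0.724) and Plac8 (0.718). Mpeg1, Adgre1 (F4/80) and C1qa are known as macrophage genes, and no known neutrophil granule gene is among the 5 of either Il1b or S100a8. Only genes that passed a lower limit of 10 TPM were ranked, and which neutrophil granule genes passed it is not given here. The absence of granule genes therefore does not bear on the leukocyte type. These r values are descriptions over libraries that share tissues and genotypes.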

How the data were processed

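For 40 RNA-seq libraries the authors deposited estimated counts and TPM per transcript from Salmon 0.10.2 (Ensembl release on GRCm38), after amplification of RNA from sorted viable cells or from RiboTag fractions and single-end sequencing. For 12 ATAC-seq libraries the authors deposited peaks called in each library with MACS2 2.1.1.20160309 after Bowtie2 2.3.2, with the fold enrichment as a ratio and -log10 q values. Transcripts were joined into 49585 genes by the GENCODE M21 annotation of GRCm38, and rounded counts were tested with edgeR 4.0.16 in R 4.3.3 (TMM normalization, filterByExpr, quasi-likelihood test, Benjamini-Hochberg adjustment over all genes; a call needs an adjusted p under 0.05 and at least 2-fold). Fractions were compared in a fit of all 24 sorted libraries or all 16 RiboTag libraries, and genotypes in a fit of 1 fraction (12 or 8 libraries), with 1 coefficient per group. The scripts were tested on simulated data. Counts were simulated for stabilized against WT AP GFP-positive cells, with 100 genes raised 4-fold and 100 raised 16-fold. Of these, 17 and 51 were called, with 4 false calls among 17915 genes, so that a gene not called can still differ. The replicates are independent preparations per the labels and the study's methods.

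The members and the marker lists were chosen with earlier results of these data known. Members were fitted with all other genes, and their calls are counted beside the share called of all genes, but no p is given for them and the counts support nothing. Named besides them were, per list and comparison, up to 3 called genes with the largest difference that reach 5 TPM in each library of the higher group, and the 5 genes most like Il1b, S100a8, Ptprc and Mrc1 over the sorted libraries among those that reach 10 TPM in at least 2. A gene at 0 in a group is given as a bound from 3 reads, and 1 to 3 reads as a ratio with an exact 95% interval; both cover counting error only. Amplified reads carry no molecular identifiers.

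Peaks whose fold enrichment and -log10 q both exceeded 2 were used, and those in or within 10 kb of a member were listed. Promoter sequences came from RefSeq (8 of 9 members) and the peak window from GRCm38. Bound and input RNA came from 1 homogenate, and the deviations of same-numbered libraries correlated at 0.0529 to 0.197; GFP-positive and GFP-negative cells of a lobe, and both lobes, came from shared pools of animals, but whether equal numbers mark a shared one is not stated, and their deviations correlated at -0.0277 to 0.134 between the fractions, where the fit paired within each preparation gave 33 calls for 41. Genotypes are not paired. The alternatives were DESeq2 1.42.0, RLE normalization, no filter on low counts, a replicate block, a fit of only the groups compared, leaving out each replicate, a pseudocount of 0.1 in place of 1, stricter peak limits, a window of 500 bp and a rescaled TPM. Some genes of the marker lists are not reported here by name.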

Additional observations from a re-analysis of the deposited data

Results flagged for a closer look

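Some of the other marker and inflammatory genes had a genotype difference in GFP-positive cells that differed between a pituitary lobe and cerebellum by a test of that difference (edgeR interaction, adjusted over all genes). For AP against cerebellum these were Laptm5, a leukocyte marker (adjusted p = 0.0135), and Ptgs2, the inducible cyclooxygenase (adjusted p = 0.0275). For PP against cerebellum they were Ccr2 (adjusted p = 0.046), the interferon-induced chemokine Cxcl10 (adjusted p = 0.0354) and Ptgs2 (adjusted p = 0.0341). Ccr2 had 3.32 and 2.44 TPM in stabilized PP GFP-positive cells and 0 and 0 TPM in WT.

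On the TPM scale the genotype difference of Il1b in PP had opposite signs in the cell fractions. The genotype difference of log2(mean TPM + 1) was 5.92 in GFP-positive cells and -3.69 in GFP-negative cells, with each stabilized library above each WT library in the first and below in the second. This difference was not tested, and with counts normalized between libraries the GFP-negative difference was -0.83 ± 1.15 (SE), within its error and not called.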

How the results depend on the processing

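The precision rests on 2 replicates a group and, for several members, on groups with 0 to 3 reads, which the depth limits. Counts of called leukocyte markers changed with DESeq2 and without the filter on low counts. DESeq2 also tested more markers (86 against 67 between genotypes in GFP-positive cells), so that the part of the tool alone was not measured. Between GFP-positive and GFP-negative cells 41 calls became 94 with DESeq2 and 79 without a filter; between genotypes in GFP-positive cells 8 became 50 and 38; in GFP-negative cells 0 became 33 and 21. Between genotypes in RiboTag libraries 8 became 24 without a filter, and for the difference between tissues 2 became 32 with DESeq2 and 25 without a filter. Calls of members between genotypes in GFP-positive cells went from 8 to 13 with DESeq2. The cause was not tested. RLE normalization, a fit of only the groups compared and stricter peak limits or window (71 starts with peaks becoming 65 and 63) kept these totals within 1.5 times. Of 20 comparisons taken singly, the count of called markers moved in 7 with only the groups compared, and in 1 with RLE normalization. That count moved in 3 of 20 with the replicate number as a block.

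Leaving out each replicate gave 35 to 43 calls between fractions, 6 to 18 between genotypes in GFP-positive cells (18 without stabilized AP replicate 1), 0 to 7 in GFP-negative cells (7 without stabilized PP replicate 2), 82 to 93 for bound against input (90 with all), 3 to 10 between genotypes in RiboTag libraries (3 without stabilized cortex input replicate 1) and 8 to 10 for members. With the replicate number as a block, calls between genotypes in GFP-negative cells went from 0 to 3, and pairing bound with input within each preparation gave 88 for 90; the block moved no other of these totals by over 1.5 times.

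Of 1071 log2 differences of members under other settings, 954 moved by less than their error, 116 moved more and 1 turned: Il1b in stabilized cerebellum, GFP-positive over GFP-negative, is 2.47 without GFP-negative replicate 1 (on 1 read) and -8.83 without GFP-positive replicate 2.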
